A study of Mus musculus with 6 samples.

Results

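The aryl hydrocarbon receptor pathway was followed through 7 genes, which were the receptor Ahr, its partner Arnt, its repressor Ahrr, and the target genes Cyp1a1, Cyp1b1, Tiparp and Nqo1. The genes were taken by name, each by the probe set annotated to that symbol alone, and all 7 were found among the 19938 genes measured, with 1 probe set each. They were chosen because Cyp1a1 was higher in the Id cKO heart, so the levels of that heart against its controls are given as a description, without a test. The study measured 6 hearts of mice aged 6 months (postnatal day 180), each on 1 Affymetrix Mouse Gene 1.0 ST array, to ask what loss of Id1 and Id3 in the vasculature does to the heart. Id1 and Id3 encode inhibitors of DNA binding, proteins that hold E proteins off DNA.

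The Id cKO heart was Tie2Cre+Id1F/-Id3-/-, with Tie2Cre, 1 floxed and 1 null Id1 allele and no working Id3 allele in any cell. An Id cKO heart treated with mouse recombinant IGFBP3, a circulating carrier of insulin-like growth factors, and an untreated Id cKO heart formed a pair that the design text calls incubated. For this pair the labels give no alleles beyond the name Id cKO. Id control 1 was Id1F/+Id3-/- and carried no Tie2Cre. Id control 2 was Tie2Cre+Id1-/-Id3+/-. The last heart was WT. Tie2Cre is a Cre transgene active in endothelial and blood cells. Each group was 1 array apart from Id control with 2, whose hearts differ in genotype. How many animals went into a sample is not stated. The 2 control arrays are numbered here in the order of the labels, since the labels give no replicate numbers.

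The aryl hydrocarbon receptor is a transcription factor of the bHLH-PAS family that waits in the cytoplasm with chaperones. When it binds a planar aromatic ligand, such as a dioxin, a combustion product or a metabolite of tryptophan, it enters the nucleus, pairs with ARNT and binds DNA at a short core sequence, the xenobiotic response element. Its best known target is Cyp1a1, a cytochrome P450 that oxidises such ligands, and Ahrr and Tiparp are targets that feed back on the receptor. In vessels, Cyp1a1 is known as a gene of endothelial cells.

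The promoters of the members are shown first, searched for the core sequence that the receptor binds. The RefSeq promoter table (GRCm38.p6) held 6 of the 7 members, without Ahr, and gives 250 bases before and 50 after a gene's start. The core searched was GCGTG, on either strand (CACGC on the other), which is also a variant of the core bound by hypoxia-inducible factors. Capitals mark it in the windows below, printed 5' to 3' on the strand of the gene, for the targets that were higher in an Id cKO heart and for Ahrr, which had the most matches. The Cyp1a1 window lies at chr9:57697363-57697662 (plus strand), that of Cyp1b1 at chr17:79715012-79715311 (minus), that of Tiparp at chr3:65528197-65528496 (plus) and that of Ahrr at chr13:74292282-74292581 (minus).
Cyp1a1: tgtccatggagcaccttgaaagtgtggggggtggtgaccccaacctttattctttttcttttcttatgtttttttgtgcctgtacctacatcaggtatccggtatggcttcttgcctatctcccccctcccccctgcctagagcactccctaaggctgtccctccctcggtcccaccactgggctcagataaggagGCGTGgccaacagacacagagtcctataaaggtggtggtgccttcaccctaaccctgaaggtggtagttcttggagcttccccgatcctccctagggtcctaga
Cyp1b1: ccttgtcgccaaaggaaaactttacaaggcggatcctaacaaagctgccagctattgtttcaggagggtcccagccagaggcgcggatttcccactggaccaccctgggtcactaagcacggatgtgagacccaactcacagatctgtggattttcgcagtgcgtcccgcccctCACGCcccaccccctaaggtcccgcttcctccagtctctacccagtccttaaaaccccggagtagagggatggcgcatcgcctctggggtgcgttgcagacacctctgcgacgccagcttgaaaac
Tiparp: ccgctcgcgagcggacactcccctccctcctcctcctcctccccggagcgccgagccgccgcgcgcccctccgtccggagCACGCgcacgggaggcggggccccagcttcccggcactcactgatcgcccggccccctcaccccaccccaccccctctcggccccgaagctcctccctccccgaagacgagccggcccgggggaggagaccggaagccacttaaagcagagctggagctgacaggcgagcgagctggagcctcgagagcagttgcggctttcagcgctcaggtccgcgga
Ahrr: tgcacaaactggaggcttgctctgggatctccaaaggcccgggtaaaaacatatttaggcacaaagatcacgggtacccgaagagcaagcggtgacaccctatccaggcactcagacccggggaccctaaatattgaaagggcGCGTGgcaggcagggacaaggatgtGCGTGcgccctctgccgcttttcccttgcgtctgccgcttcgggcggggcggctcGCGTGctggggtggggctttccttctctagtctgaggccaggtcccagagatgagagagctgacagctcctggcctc

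The core was present 1 time in the Cyp1a1 window, at position -54 (counted from the start, negative upstream), 1 time in that of Cyp1b1 (-76), 1 time in that of Tiparp (-170) and 3 times in that of Ahrr (-107, -82 and -27). Arnt had 1 match (-29) and Nqo1 had 0. Of all 32851 promoter windows of the same length, 32.4% held the core and 3.91% held it 3 times or more. The member windows were 53.7% (Nqo1) to 73.7% (Tiparp) G and C, against a median of 52.7% over all windows. The shares over all windows were not matched for this. The hypoxia core ACGTG was in 0 of the 6 windows, against 19.6% of all windows. The antioxidant core TGACNNNGC, read by NRF2, matched 2 times in Arnt and in no other member, Nqo1 included, against 12.4% of all windows. The E-box CANNTG, the sequence of E proteins, was found 1 time in Arnt and 1 time in Tiparp, against 72.3% of all windows. These matches describe the letters of the windows and show no binding, and sequence outside the windows was not searched.

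Values are log2 expression levels. WT, both Id controls and Id cKO lay on 1 scale, with array medians between 5.73 and 5.83, while the incubated pair had medians of 4.45 (treated) and 4.51 (untreated) and held the same value to the last digit for 1586 probe sets, where no other 2 arrays did so for more than 32. Levels are therefore compared as deposited within each of these sets, and after quantile normalization of all 6 arrays between them. Array set and group cannot be told apart in comparisons between the sets. Id1 was at 6.48 in Id cKO, 8.11 and 6.41 in Id control 1 and 2, and 8.14 in WT. Id3 was at 4.69 in Id cKO, 5.02 and 7.32 in Id control 1 and 2, and 7.18 in WT. Each gene was thus lowest in the hearts labelled as losing both its alleles. Whether the probes lie within the deleted parts was not analysed here. Xist, the RNA of the inactive X of females, was at 8.62 in Id cKO and 8.61 and 8.15 in the Id controls, against 4.03 in WT, and both incubated hearts lay at or below 3.08. Sex pattern thus differs between WT and the other 3 hearts of the same set. Codes in the labels group WT, Id control 2 and Id cKO together, Id control 1 by itself, and the incubated pair by itself.

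**Figure D1:**
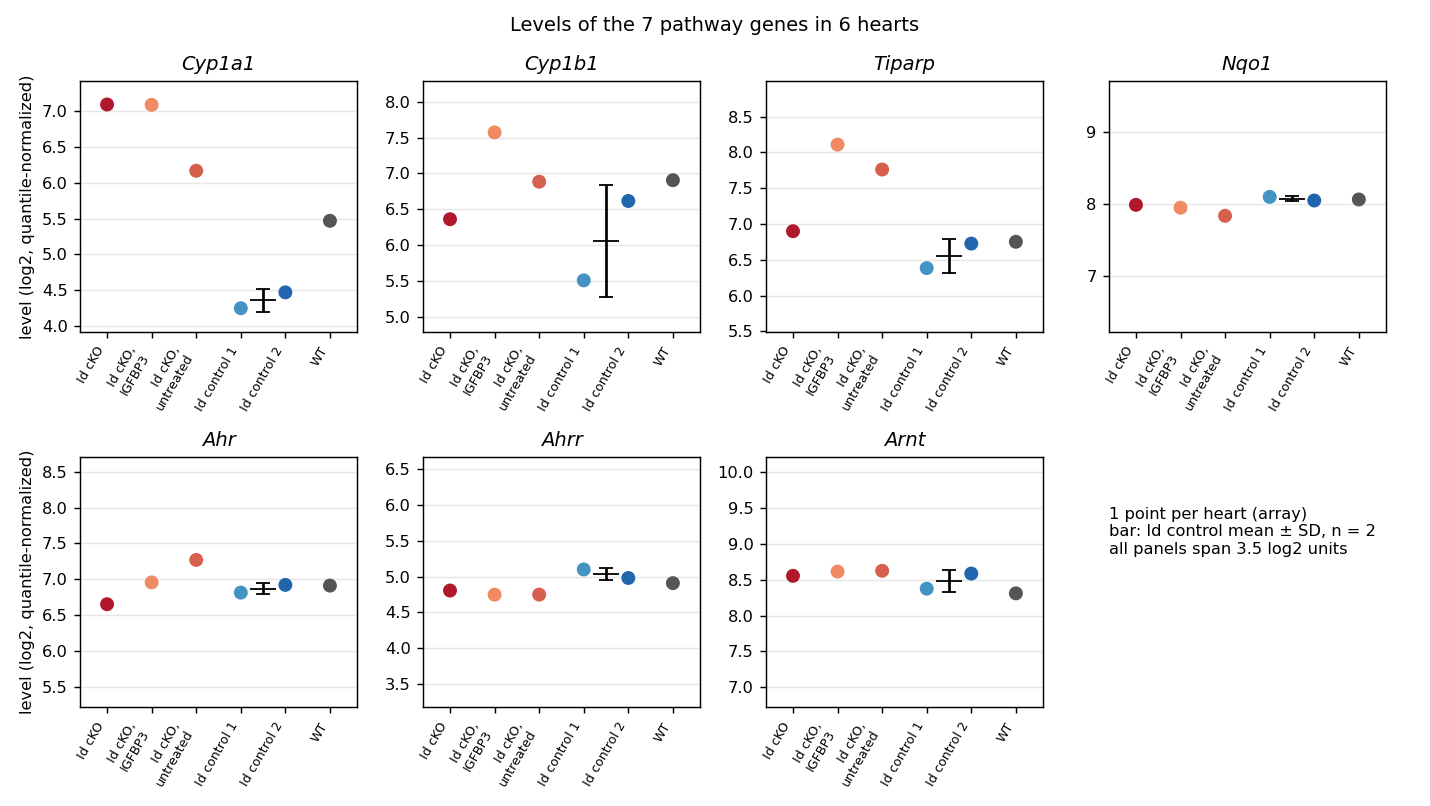
Level of each of the 7 genes (y axis, log2 after quantile normalization) in each of the 6 hearts (x axis), with 1 point per array and a bar for the Id control mean ± SD (n = 2). Every panel spans the same height, so the spread of Cyp1a1, between 4.25 and 7.09, can be set beside that of Arnt, between 8.31 and 8.63.

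Cyp1a1 was the member that varied most. As deposited, it was at 7.50 in Id cKO, against 4.68 and 4.86 in Id control 1 and 2 and 5.95 in WT. The Id cKO heart thus stood 2.73 (log2) above the Id control mean of 4.77 ± 0.13 (SD, n = 2), 2.82 above Id control 1 and 2.64 above Id control 2. Against WT it was 1.55 higher. The Id control and WT levels lay under 6, the log2 floor that the higher group had to reach for a gene to be compared, and the Id control levels also under the array medians, so the size of these differences is uncertain. Within the hearts that share a code, Id cKO was thus 2.64 above Id control 2 and 1.55 above WT. WT was the next highest of the 4 hearts and lay 1.27 and 1.09 above Id control 1 and 2.

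The incubated Id cKO hearts were not used to choose the genes, but they are set here against the same Id control and WT hearts, so their differences are not independent of that choice. In these hearts Cyp1a1 was at 6.30 with IGFBP3 and 5.36 without, on their lower scale. After quantile normalization the levels were 7.09 in Id cKO, 7.09 in the treated heart and 6.17 in the untreated heart, against 4.25 and 4.47 in Id control 1 and 2 and 5.47 in WT. All 3 Id cKO hearts were above all 3 others, with a gap of 0.70 between the untreated heart and WT, an order that 13.7% of 10769 genes share. Id cKO and the treated heart differed by less than the SD of the Id controls (0.16). The steps down to the untreated heart, to WT and to Id control 2 each exceeded it. This SD rests on 2 hearts that differ in genotype. The untreated heart was 1.70 above Id control 2 and 1.92 above Id control 1. Of 6 members compared here, 2 (Cyp1a1 and Tiparp) were at least 2-fold above both Id controls, as 4.93% of 10324 genes were, and Cyp1a1 reached the floor through the untreated heart alone. Against WT, which like the incubated hearts has the male pattern, it was 0.70 higher, where 14.3% of genes were as high or higher.

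Endothelial markers were higher in the 3 Id cKO hearts, as Cyp1a1 was, but not in WT. The summed level of 17 markers (log2, quantile-normalized) was 13.15 in Id cKO, 13.54 in the treated and 13.56 in the untreated heart, against 12.72 and 12.73 in the Id controls and 12.73 in WT. Relative to the Id control mean, the sum was 0.43 higher in Id cKO, 0.82 in the treated and 0.84 in the untreated heart, where Cyp1a1 was 2.73, 2.73 and 1.81 higher in the same order. In WT Cyp1a1 was 1.11 above the Id control mean and the endothelial sum 0.005 above it. Between the incubated hearts Cyp1a1 was higher in the treated one while the endothelial sums were nearly equal. Gene by gene, 12 endothelial markers were higher and 5 lower in the treated heart as deposited. Their median difference was 0.18, beside 0.05 over all 7474 genes compared, of which 4058 were higher. The sums of other cell types were also higher in the incubated pair, fibroblast markers by 0.75 (treated) and 0.80 (untreated) and macrophage markers by 0.55 (treated) and 0.98 (untreated). In Id cKO the fibroblast sum stood at -0.38 and the macrophage sum at -0.31 from the Id control mean. For fibroblasts Id control 1 itself stood at -0.39, Id control 2 at 0.39 and WT at -0.59, so Id cKO lay within the Id controls. For macrophages Id control 1 stood at 0.015, Id control 2 at -0.015 and WT at -0.305. Of the 17 markers, 14 were higher in Id cKO than the Id control mean, where 5125 of all 11310 genes compared were. In whole-heart RNA, fewer cells of a type and less RNA per cell cannot be told apart, and the part of the endothelial markers in the level of Cyp1a1 was not tested. Lung and liver, which hold cells rich in Cyp1 enzymes, were also followed. The summed lung epithelial markers were at 8.00 as deposited in Id cKO, 7.88 and 7.89 in the Id controls and 7.97 in WT, and the summed liver markers at 7.67 in Id cKO, 7.64 in each Id control and 7.91 in WT. Sftpc, the defining gene of alveolar type II cells, was at 4.99 in Id cKO, 4.47 and 4.91 in the Id controls and 4.96 in WT, and the hepatocyte gene Alb at 4.13 in Id cKO, 4.13 and 4.09 in the Id controls and 4.18 in WT.

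**Figure D2:**
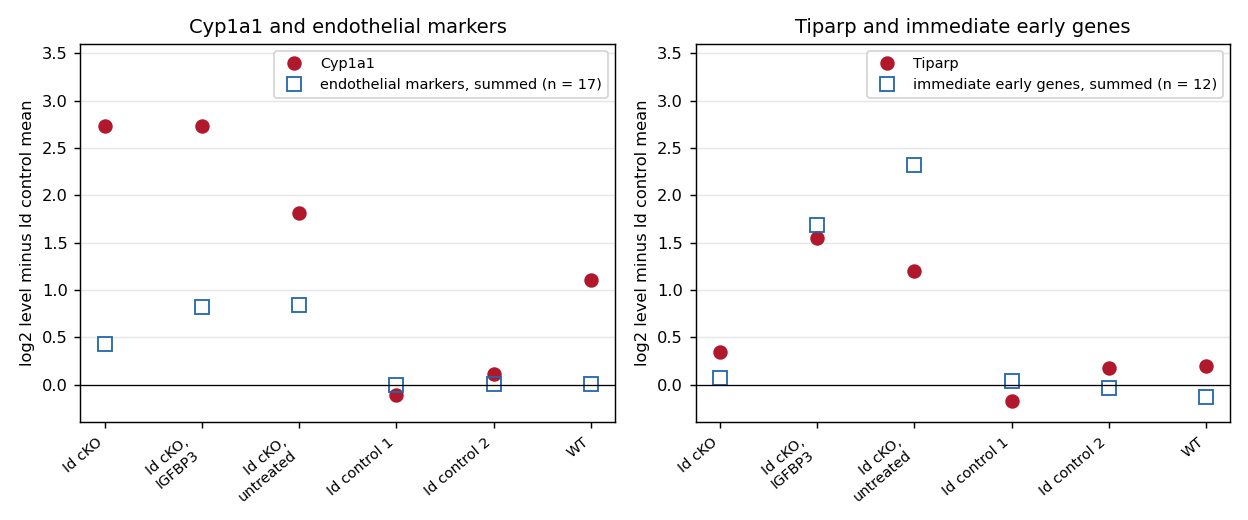
Left, Cyp1a1 and the summed level of 17 endothelial markers, and right, Tiparp and the summed level of 12 immediate early genes, each as log2 level minus the Id control mean after quantile normalization (y axis) in 6 hearts (x axis). Cyp1a1 is 1.81 to 2.73 above the Id control mean in the 3 Id cKO hearts, where the endothelial sum is 0.43 to 0.84 above it. Tiparp and the immediate early genes are highest in the incubated pair.

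Cyp1b1, another P450 gene induced through the receptor, was not the highest in Id cKO. It was at 6.78 in Id cKO, 5.92 and 7.02 in Id control 1 and 2, and 7.26 in WT. The Id cKO heart lay between the Id control hearts, 0.86 above the one and 0.25 below the other, and 0.48 below WT. The difference between the Id controls, -1.11 for Id control 1 minus Id control 2, was itself over 2-fold, which 1.21% of 11244 genes reached. Cyp1b1 is known in fibroblasts, and the summed fibroblast markers were 13.33 in Id control 1 and 14.12 in Id control 2, against 13.10 in WT. Their part in the level of Cyp1b1 was not tested. After quantile normalization Cyp1b1 was at 7.57 in the treated and 6.88 in the untreated heart, against 6.90 in WT, and Id control 1 alone stood apart at the low end by more than the Id control SD of 0.78.

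Tiparp, which encodes the mono-ADP-ribosyltransferase PARP7 that modifies and restrains the receptor, was at 7.31 in Id cKO, 6.79 and 7.13 in Id control 1 and 2, and 7.12 in WT. Id cKO was highest of the 4, by 0.18 over Id control 2 and 0.19 over WT, steps within the SD of the Id controls (0.24). After quantile normalization it was at 8.11 in the treated and 7.76 in the untreated heart, against 6.90 in Id cKO, 6.38 and 6.73 in the Id controls and 6.75 in WT. The untreated heart was thus 1.03 and 1.38 above Id control 2 and 1, and 1.01 above WT. Against WT, 1 of 6 members was at least 2-fold higher, as 7.75% of 10317 genes were. All 3 Id cKO hearts lay above all 3 others for Tiparp too, by a gap of 0.15, which is under the Id control SD. Tiparp is also known as a gene induced quickly by stress and growth signals. The summed level of 12 immediate early genes was 12.59 in the treated and 13.22 in the untreated heart, against 10.97 in Id cKO, 10.94 and 10.87 in the Id controls and 10.77 in WT, and all 12 were at least 2-fold higher in the untreated heart than in both Id controls, as 4.93% of all genes were. Fos was at 9.10 in the untreated heart, against 5.46 and 5.88 in the Id controls. The part of this response in the level of Tiparp was not tested.

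Nqo1, a quinone reductase under the control of both the receptor and the oxidant sensor NRF2, was the steadiest of the targets. It was at 8.37 in Id cKO, 8.52 and 8.49 in Id control 1 and 2, and 8.41 in WT. In the incubated pair it was at 7.17 (treated) and 7.02 (untreated), which became 7.95 and 7.84 after quantile normalization, against 8.05 to 8.10 in WT and the Id controls. All 3 Id cKO hearts lay below all 3 others, by a gap of 0.06, an order that 17.3% of 10769 genes shared. With each array centred on its median the groups overlapped.

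The receptor and its partners differed little. Ahr was at 7.07 in Id cKO, 7.22 and 7.34 in Id control 1 and 2, and 7.26 in WT, so that Id cKO was the lowest of the 4, by 0.15 to 0.28. After quantile normalization Ahr was at 6.65 in Id cKO, 6.95 in the treated and 7.27 in the untreated heart, against 6.81 to 6.92 in the other 3, and the Id cKO hearts stood on either side of them. Arnt, the shared partner of the receptor and of the hypoxia-inducible factors, was at 8.94 in Id cKO, 8.80 and 9.04 in the Id controls and 8.66 in WT. After quantile normalization it was at 8.62 in the treated and 8.63 in the untreated heart, against 8.38 and 8.59 in the Id controls. Ahrr, the repressor that competes for ARNT, was at 5.26 in Id cKO, 5.52 and 5.36 in the Id controls and 5.41 in WT. Every one of these was under the floor of 6, so Ahrr has levels here and no call. Ahrr is a target as well, and after quantile normalization it was at 4.80, 4.75 and 4.75 in Id cKO, the treated and the untreated heart, against 5.10 and 4.98 in the Id controls and 4.91 in WT. All 3 Id cKO hearts were below the others, by a gap of 0.10. Of the 10769 genes that reached the floor 17.3% shared this order, and Ahrr is not among them.

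**Figure D3:**
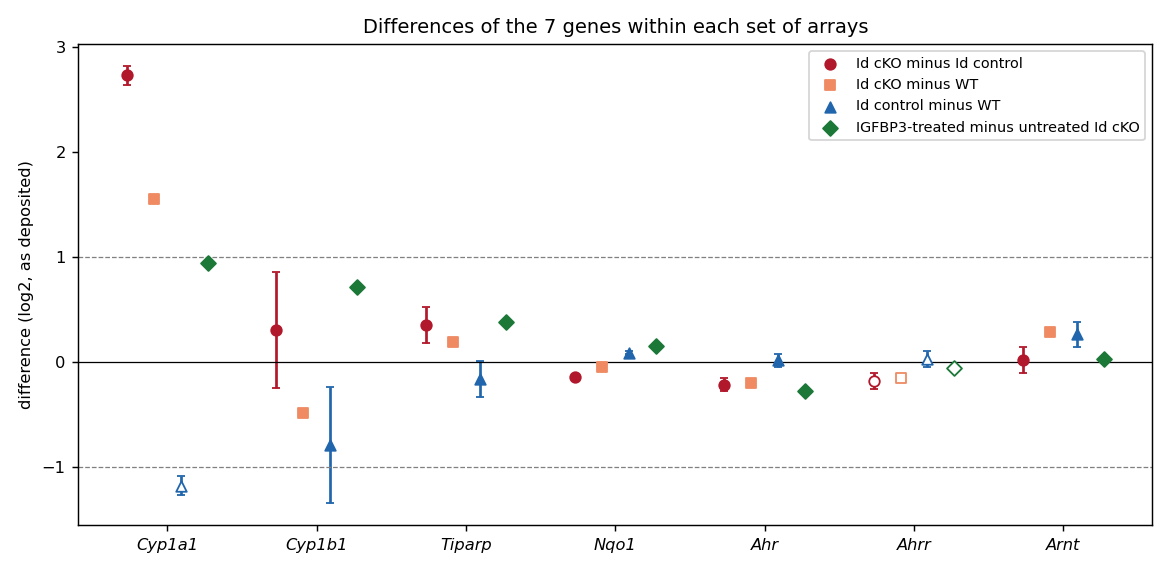
Difference in log2 level as deposited (y axis) for each of the 7 genes (x axis) in 4 comparisons, with bars from the smaller to the larger difference where Id control, with 2 arrays, is a group, and dashed lines at 2-fold. Open symbols mark genes below the floor of 6. Cyp1a1 is the gene with points above 2-fold, at 2.73 and 1.55 for Id cKO against Id control and WT.

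Between Id cKO and Id control, 6 of the 7 genes passed the floor, Cyp1a1 through its level in Id cKO alone, and 1 was 2-fold from both control arrays. Over all genes the share was 1.12% of 11310, which is given for scale, since the genes were chosen from this contrast. Against WT, 1 of 6 was 2-fold apart, where 3.17% of 11478 genes were. The median difference of the members was 0.16 against Id control and 0.07 against WT, beside -0.03 and 0.00 over all genes compared. These comparisons share the Id cKO array.

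Id control was set against WT for the effect of the control genotypes themselves, without the Id cKO heart. Of the 5 members that passed the floor, 0 were 2-fold from WT on both arrays, where 0.202% of 11407 genes were. In limma over the 6 arrays 0 members passed a Benjamini-Hochberg adjusted p of 0.05, as did 0 of all genes (0.0%), against 828 genes at an unadjusted p under 0.05. Cyp1b1 had the largest difference, -0.79 ± 0.48 (limma SE), adjusted p = 0.659, with both controls below WT, by 1.34 and 0.24. Arnt was at 0.26 ± 0.17, Tiparp at -0.16 ± 0.20, Nqo1 at 0.09 ± 0.14 and Ahr at 0.02 ± 0.15, with adjusted p in limma from 0.672 to 0.975. Cyp1a1 missed the floor by its WT level of 5.95. Without a floor its difference was -1.18 ± 0.17 in limma, lower in both controls, with an unadjusted p of 0.000891 and an adjusted p of 0.674 over 19938 genes. The spread in this fit rests on 1 residual degree of freedom, from the Id control hearts, and WT also differs from both controls in sex pattern, which cannot be told apart from genotype here.

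IGFBP3 treatment was set against no treatment in the incubated pair, where each group was 1 array. Cyp1a1 was at 6.30 in the treated and 5.36 in the untreated heart, 0.94 or 1.92-fold higher with IGFBP3. Cyp1b1 was at 6.79 and 6.07, a difference of 0.72, and Tiparp at 7.33 and 6.95, a difference of 0.39. Of the 6 members that passed the floor, Cyp1a1 through the treated heart alone, 0 were 2-fold apart, as 1.3% of 7474 genes were. At 1.5-fold 2 were higher, Cyp1a1 and Cyp1b1, as 7.65% of all genes were. As high as Cyp1a1 or higher were 0.736% of genes. Nqo1 differed by 0.15 and Arnt by 0.03, and Ahr was at 6.17 with IGFBP3 and 6.44 without, a difference of -0.28. The difference has no replicate check. In limma, with the lone arrays assumed to vary like the Id controls, Cyp1a1 stood at 0.94 ± 0.18 (SE) with an adjusted p of 0.184, and 0 of all genes (0.0%) passed 0.05, against 1716 at an unadjusted p under 0.05. After cyclic loess or median centring the difference of Cyp1a1 was over 2-fold, up to 1.03. Immediate early genes ran the other way on this pair, with 10 of 12 lower in the treated heart. Of these, Fosb (-1.22), Nr4a1 (-1.04), Egr1 (-1.04) and Dusp1 (-1.02) were 2-fold lower. Of 17 endothelial markers 12 were higher. Over all 7474 genes compared, 4058 were higher and 3368 lower, with 60 of them 2-fold lower.

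The other genes of the pathway were taken from lists of chaperones, bHLH-PAS proteins, further receptor targets, NRF2 targets and enzymes that make or remove tryptophan-derived ligands. Of 5 further receptor targets compared between Id cKO and Id control 0 were 2-fold from both controls, where 1.12% of all 11310 genes were. Slc7a5, which encodes an amino acid transporter that also carries tryptophan products, was at 8.24 in Id cKO, 7.44 and 7.52 in the Id controls and 7.23 in WT. It was 0.76 above the Id control mean and 1.01 above WT in Id cKO, and -0.83 for the treated minus the untreated heart. Selenbp1, a selenium-binding protein, was the other way, at 7.52 in Id cKO, 8.35 and 8.32 in the Id controls and 8.31 in WT, and Xdh, xanthine dehydrogenase, was 1.15 below WT. Cyp1a2, the close relative of Cyp1a1 on chromosome 9, was singled out after its values were seen. It was at 4.63 in Id cKO, no more than 4.55 in either Id control and 4.35 in WT, below the floor on every array. It was also at an equal value, 2.81, on both incubated arrays. The list median was -0.35 in Id cKO against Id control, beside -0.03 over all genes. In the untreated incubated heart against Id control it ran the other way, at 0.65 beside -0.02 over all genes, with 3 of 4 genes higher and 1, Slc7a5, 2-fold higher (1.39). Of all 10324 genes compared there, 4984 were higher and 4.93% at least 2-fold higher.

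Of the chaperones that hold the receptor in the cytoplasm, Hsp90aa1 was at 11.31 in Id cKO, 10.51 and 10.93 in the Id controls and 10.79 in WT, 0.59 above the Id control mean, and the co-chaperone gene Ptges3 was 0.29 below it. Of 8 bHLH-PAS genes 0 were 2-fold from both controls, where 1.12% of all 11310 genes were. Hif1a, the oxygen-regulated partner of ARNT, was at 9.45 in Id cKO, 8.93 and 9.20 in the Id controls and 8.57 in WT, the highest of the 4. The clock gene Arntl was at 7.33 in Id cKO, 5.79 and 6.75 in the Id controls and 7.02 in WT. Its difference of 1.06 from the Id control mean rested mainly on Id control 1, since it was 0.58 against Id control 2.

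NRF2 targets were mostly a little lower in Id cKO than in Id control, 17 of 20, with 0 at 2-fold and a median of -0.20. Of all 11310 genes 6185 were lower and 1.12% were 2-fold from both controls, and the median over all genes was -0.03. Abcc4, an exporter of conjugates, was at -0.56 and the glutathione transferase gene Gstm1 at -0.51. In the untreated incubated heart 12 of 20 were higher than Id control after quantile normalization and 3 at least 2-fold, where 4984 of all 10324 genes were higher and 4.93% at least 2-fold. Hmox1, heme oxygenase, was at 9.43 in the untreated heart, against 6.63 and 6.97 in the Id controls, and Gsta3 at 8.27, against 6.44 and 6.01. Ephx1, microsomal epoxide hydrolase, was 1.39 higher. With IGFBP3, 7 of 20 were higher and 13 lower than without, 0 of them at 2-fold. Over all 7474 genes compared, 4058 were higher and 3368 lower, and 1.3% were 2-fold apart. By limma 0 genes of any of these lists passed between Id control and WT, or between treated and untreated.

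Among the enzymes of tryptophan and kynurenine, the dioxygenase genes Tdo2 and Ido1, which open the path to kynurenine, were singled out after their values were seen. Tdo2 was at 3.67 and Ido1 at 4.85 in Id cKO, and both were below the floor in every heart. Of 5 compared between Id cKO and Id control, 1 was 2-fold lower than both controls, as 48 of all 11310 genes were. This was Maob, monoamine oxidase B, which breaks down tryptamine and other amines, at 7.65 in Id cKO, against 9.31 in both Id controls and 9.29 in WT. After quantile normalization Maob was also lower in the incubated hearts, at 7.62 (treated) and 7.32 (untreated), against 8.85 to 8.92 in the other 3. The aminotransferase gene Kyat3 was at 7.30 in Id cKO, 8.11 and 7.90 in the Id controls and 8.34 in WT. Maoa, the other monoamine oxidase, was at 6.57 in Id cKO, 5.98 and 6.24 in the Id controls and 5.56 in WT.

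The genes whose levels followed Cyp1a1 most closely were looked for among 2650 genes. These reached 6 on an array and spanned at least 1 log2 unit after quantile normalization, and predicted or clone-named genes were left out. Prkch, a protein kinase C, came first (Pearson r = 0.979 over 6 hearts), followed by the chemokine receptor gene Cxcr4 (0.950), Rai14 (0.948), the DNA polymerase gene Polk (0.944) and the septin gene Septin11 (0.935). Prkch was at 8.61, 8.55 and 8.23 in Id cKO, the treated and the untreated heart, against 7.69 and 7.49 in the Id controls and 7.97 in WT. Cxcr4 was at 9.56, 9.30 and 8.97 in the 3 Id cKO hearts, against 7.18 and 7.13 in the Id controls and 7.36 in WT. In each of the 5 genes all 3 Id cKO hearts lay above the other 3, the order given above for Cyp1a1 itself, and the incubated hearts share an array set. The 5 were picked by their r with Cyp1a1 over the same hearts, so this order was largely set by the choice. Of the members, Tiparp had an r of 0.718 with Cyp1a1, Cyp1b1 0.616, Arnt 0.489, Ahr -0.004, Nqo1 -0.641 and Ahrr -0.910. The limits on level and span were not applied to the members. Ahrr was under 6 in every heart and spanned 0.35, and Nqo1 spanned 0.26, Arnt 0.32 and Ahr 0.62. These r describe 6 hearts in 2 sets of arrays and carry no test.

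**Figure D4:**
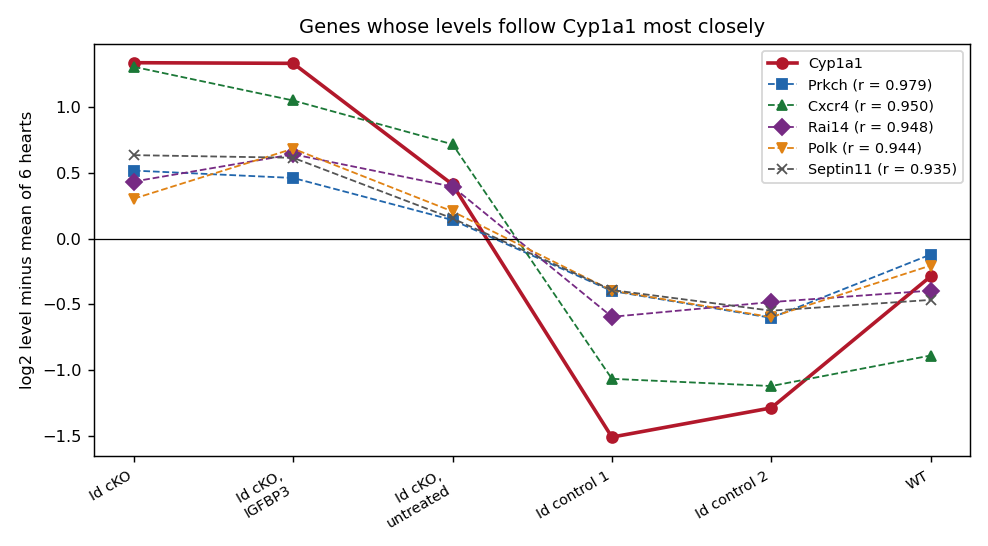
Level of Cyp1a1 and of the 5 genes with the highest Pearson r with it, as log2 level minus the mean of 6 hearts after quantile normalization (y axis), in each heart (x axis). Lines join the points of a gene and imply no order of the hearts, and r is between 0.935 and 0.979.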

How the data were processed

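Heart RNA of 6 samples was measured on Affymetrix Mouse Gene 1.0 ST arrays. The deposited values are log2 expression levels of 35557 probe sets, made by the authors with RMA in Expression Console (per the submitters' processing notes, with no version). Arrays have no read depth, and their number limits the precision.

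Probe sets with 1 symbol in the platform annotation (21789; 1621 had several, 12147 none) gave 19938 genes, each read from its probe set of highest mean. A gene was compared if the higher of its group means was at least 6, and counted at 2-fold from every array of the other group, the fold of the design text. limma (3.58.1, R 4.3.3) was fitted to all compared genes with Benjamini-Hochberg adjustment, its script was tested on simulated data, and it also did the quantile normalization over all probe sets. Its p-values rest on the spread between the 2 Id control hearts, which differ in genotype and label code, drawn by limma toward the spread over all genes. Part of that spread may be technical. The members and lists were chosen with earlier results of these data known. All members are named, and from each list the genes 2-fold apart or the 2 furthest apart; others are said to be singled out. Alternatives were other scalings, floors, probe set rules, fold limits and leaving out a control array.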

Additional observations from a re-analysis of the deposited data

How the results depend on the processing

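No member that was 2-fold apart changed direction under any scaling, floor, probe set rule or left-out control in which it was compared. With a floor of 8 Cyp1a1, Cyp1b1 and Tiparp are not compared. Counts over all genes depended on the limits chosen. At 1.5-fold in place of 2-fold they were 565 (127 in the chosen setting) for Id cKO against Id control, 1181 (364) for Id cKO against WT, 156 (23) for Id control against WT, 539 (136) between the Id controls, 1076 (97) for treated against untreated, 2818 (952) for untreated against Id control and 3633 (1419) for untreated against WT. With a floor of 8 they were 73, 223, 12, 76, 39, 518 and 766 in the same order. Treated against untreated gave 146 after cyclic loess and 178 without a floor. Without Id control replicate 1 or 2 the counts ranged from 286 to 300 for Id cKO against Id control, from 57 to 203 for Id control against WT and from 1278 to 1351 for untreated against Id control, since only 1 array then had to be apart. Without Id control replicate 1, Cyp1a1 was 2.64 higher in Id cKO, and without replicate 2 it was 2.82 higher. Cyp1b1 was 0.25 lower in Id cKO without replicate 1 and 0.86 higher without replicate 2. Median centring moved the split of Id control against WT to 17 higher among 24, from 12 among 23, and of treated against untreated to 80 higher among 124, from 37 among 97. It gave 975 higher among 1406 for untreated against WT, from 800 among 1419. Without a floor limma called 1 gene between Id control and WT, and Cyp1a1 was 2-fold below WT in both Id controls. The small differences of Ahr between Id control and WT and of Arnt between treated and untreated changed sign after cyclic loess (adjusted p in limma 0.978 and 0.900) and after quantile normalization (0.936 and 0.977), and the cause was not tested. Over the alternatives the adjusted p of Cyp1a1 between treated and untreated ranged from 0.173 to 0.282. No paired analysis was possible because the labels give no replicate numbers, and a block on the codes in the labels would leave no residual degrees of freedom.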

Other observations

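Other P450 enzymes were mostly lower in Id cKO. Of 12 P450 and reductase genes compared between Id cKO and Id control 10 were lower, with 0 at 2-fold from both controls and a median of -0.21. Of all 11310 genes 6185 were lower and 1.12% were 2-fold from both controls. Cyp4b1, a P450 of lung and vessels that hydroxylates fatty acids, was at 6.82 in Id cKO, 7.81 and 7.77 in the Id controls and 7.57 in WT. Cyp2e1, an ethanol-induced P450, was at 4.65 in Id cKO, 5.05 and 8.34 in Id control 1 and 2, and 4.61 in WT, so that Id control 2 alone stood apart. In that heart the atrial genes Myl7 (12.27) and Myl4 (12.97) were also high, against 5.31 and 6.83 in Id control 1. All 4 adipocyte markers compared were lower in Id control 1 than in Id control 2, 3 of them 2-fold, with a median of -1.38. So were all 11 fibroblast markers, 5 of them 2-fold. Over all 11244 genes compared 5619 were lower, 117 of them 2-fold. The part of these genes in the level of Cyp2e1 was not tested. In the untreated incubated heart, 6 of 10 were higher than Id control after quantile normalization (median 0.37, beside -0.02 over all genes), with Cyb5r3 (1.98) and Cyp2d22 (1.49) 2-fold higher, as 4.93% of all genes were. Between the incubated arrays 0 of 8 P450 and reductase genes were 2-fold apart, where 1.3% of 7474 genes were and Cyp1a1 differed by 0.94.

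Of 13 PARP family genes, the relatives of Tiparp, 9 were above the Id control mean in Id cKO, with 0 at 2-fold and a median of 0.10. Over all 11310 genes compared 5125 were higher, with a median of -0.03, and 1.12% were 2-fold from both controls. Id control was itself above WT for 9 of the 13, with a median of 0.10, where 6853 of all 11407 genes were higher. Parp14 was at 7.87 in Id cKO, 7.45 and 7.11 in the Id controls and 7.37 in WT, and Parp9 at 7.77 in Id cKO, 7.28 and 7.07 in the Id controls and 7.08 in WT. Both are known as genes induced by interferon. With IGFBP3 Parp14 was 0.64 and Parp9 0.53 higher than without.

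The list of endothelial genes that respond to flow holds genes that steady flow induces, such as Klf2, Klf4, Nos3 and Thbd, and genes that it lowers, such as Vcam1 and Edn1. Of 7, 3 were higher in Id cKO than the Id control mean and 4 lower, where 5125 of all 11310 genes were higher. Nos3, the endothelial nitric oxide synthase, was at 8.69 in Id cKO, 7.78 and 7.91 in the Id controls and 7.67 in WT. Klf2, the flow-induced transcription factor, was at 8.49 in Id cKO, 8.39 and 8.44 in the Id controls and 8.64 in WT. In the untreated incubated heart 5 of the 7 were at least 2-fold above both Id controls after quantile normalization, Klf2 (1.39), Klf4 (1.36), Thbd (1.22), Nos3 (1.21) and Vcam1 (2.28), the last an adhesion molecule of inflamed vessels, as 4.93% of all genes were. With IGFBP3 Klf2 was 0.75 lower than without, on the pair where Cyp1a1 was 0.94 higher.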
